A study of Populus ussuriensis with 12 samples.

Results

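The wood NAC and MYB master switches are transcription factors that turn on the program of secondary wall formation in xylem, the water-conducting and supporting tissue of wood and of the vascular strand of the root. NAC proteins of the top layer bind and activate MYB genes of the second layer, and both layers then switch on the enzymes that make cellulose, xylan and lignin. In Arabidopsis, relatives of the NST/SND1 type act mainly in fibres, and relatives of the VND type act in the water-conducting vessels. MYB46 and MYB83 of Arabidopsis are direct targets of these NAC proteins. The poplar genes are called WND, for wood-associated NAC domain, and MYB.

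The members were taken by gene ID, by a rule that uses no measured value, although the set was proposed with earlier results of these data known: 10 of the 39602 genes in the deposited files, 6 NAC genes and 4 MYB genes. WND1A (Potri.011G153300.v3.0), WND1B (Potri.001G448400.v3.0), WND2A (Potri.014G104800.v3.0) and WND2B (Potri.002G178700.v3.0) are relatives of the NST/SND1 type. WND6A (Potri.013G113100.v3.0) and WND6B (Potri.019G083600.v3.0) are relatives of VND7. MYB002 (Potri.001G258700.v3.0), MYB003 (Potri.001G267300.v3.0), MYB020 (Potri.009G061500.v3.0) and MYB021 (Potri.009G053900.v3.0) are relatives of MYB46 and MYB83. They were compared as 5 duplicate pairs: WND1A with WND1B, WND2A with WND2B, WND6A with WND6B, MYB002 with MYB021, and MYB003 with MYB020. The names come from the definition of the gene set, since the files pair no ID with a name.

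Root mRNA of in vitro Populus ussuriensis plants, 21 days old, was sequenced in 4 groups of 3 libraries: PuHSFA4a-OE on excess Zn (OE Zn), PuHSFA4a-OE on control medium (OE control), wild type on excess Zn (WT Zn) and wild type on control medium (WT control). HSFA4a is a class A heat shock factor; the sources used here give neither the promoter of the transgene nor the number of lines. Plants grew for 1 week on plates with agar and sucrose and then for 2 weeks on their test medium. The protocol names 1.2 mM zinc sulfate with every sample, and this was read as the Zn medium alone. No label tells whether libraries of a group are separate plants or cultures, so p-values cover the spread between these libraries, which may be technical.

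Total counts ran from 15594001 to 21206585 per library, of which only 256 to 484 fell on the 10 members. The number of counts limits the precision for the lowest members, and a floor of 3 counts equals 0.141 to 0.192 CPM, that is, counts scaled to a common library size. The locus taken as HSFA4a, Potri.011G071700.v3.0, stood at 239 to 347 CPM in the OE libraries and at 32.5 to 37.1 CPM in 4 of the 6 WT libraries. Between them stood WT control 1 and WT control 2, at 129 and 165 CPM, apart from the other WT libraries. Whether the label of these 2 libraries is right was not tested. The ID of this locus was assigned from memory. On Zn the locus was lower in WT (log2 fold change -1.74, SE 0.39, edgeR adjusted p = 0.00798). That fall rests on WT control 1 and 2, since WT control 3 stood at 37.1 CPM, against 32.5 to 33.1 CPM in WT Zn. The log2 difference of OE over WT at HSFA4a was 2.97 on Zn (SE 0.41, edgeR adjusted p = 0.0575) and 1.62 on control medium (SE 0.38, edgeR adjusted p = 0.395). The Zn responses of the members in WT, the pair shares and the counts per list are therefore also given with WT control 1 and 2 left out.

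Of the 10 members, 4 changed on Zn in OE roots and 5 in WT roots, and the WND1 and WND6 pairs moved in opposite directions. WND1A and WND1B fell in both genotypes, by 1.97-fold to 4.11-fold. WND6A and WND6B rose in both genotypes, by 3.34-fold and more. WND2B fell in WT roots, while WND2A and the 4 MYB genes did not pass the test in either genotype. Calls rest on edgeR's quasi-likelihood test with an adjusted p under 0.05 over 25871 genes. In OE roots 2 members were called higher and 2 lower, where 8.52% of all tested genes were called higher and 8.54% lower. In WT roots 2 members were called higher and 3 lower, where 15.3% of all tested genes were called higher and 14.5% lower. The members' median log2 fold change was -0.04 in OE and -0.27 in WT, beside 0.00 and 0.01 for all genes tested. In bulk roots, fewer cells of a type and less RNA per cell cannot be told apart.

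**Figure D1:**
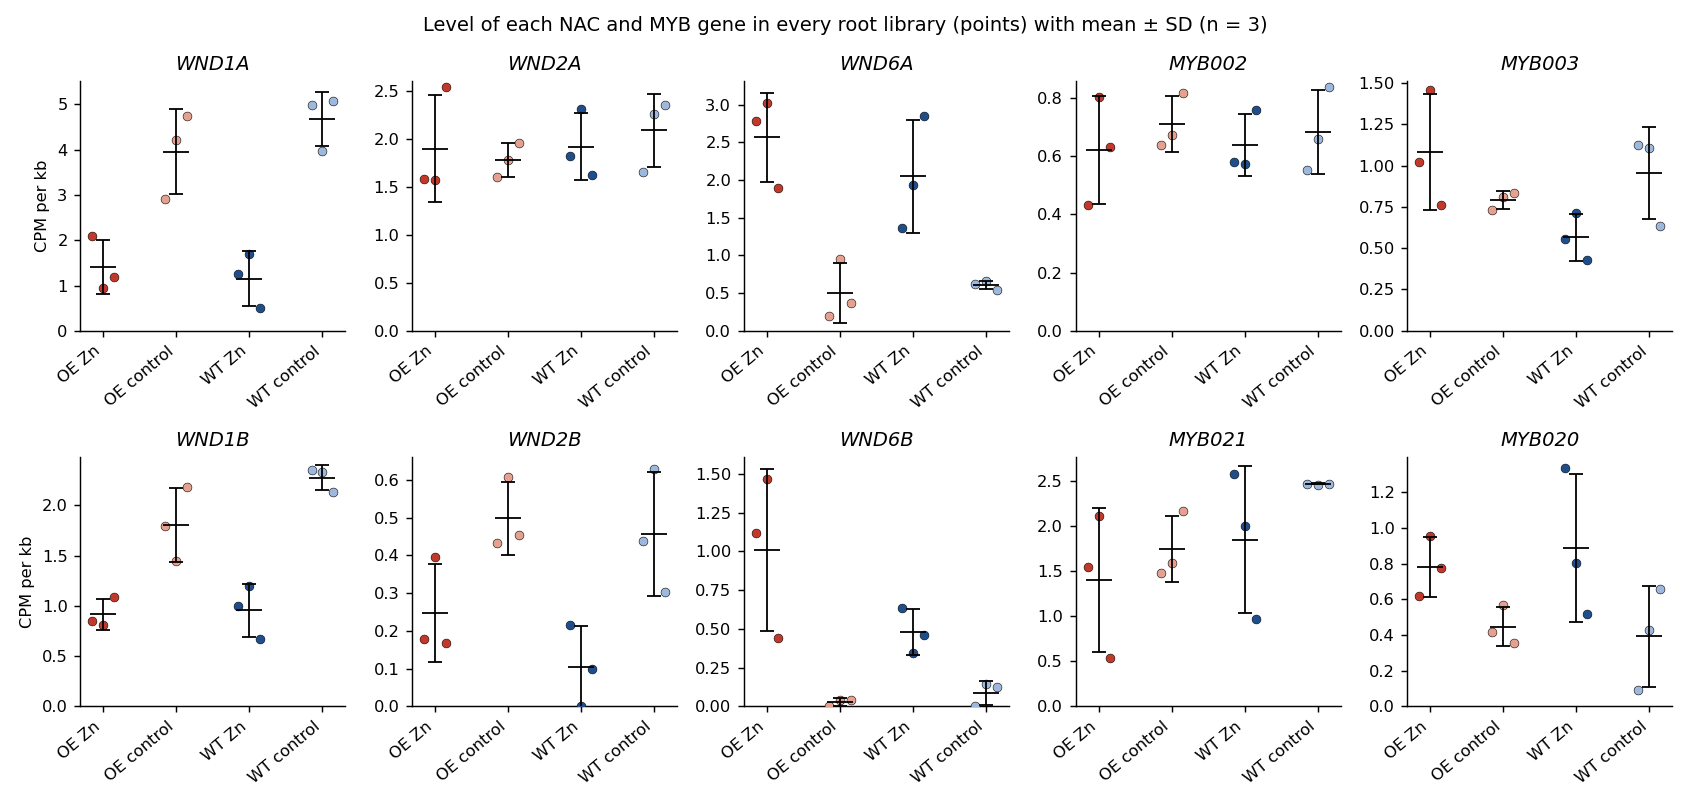
Level of each gene in CPM per kb of transcript (vertical axis, linear, from 0) in the 4 groups, with 1 point for each library and the mean ± SD (n = 3) in black. WND1A and WND1B sit lower and WND6A and WND6B higher in the Zn libraries of both genotypes. The Zn and control points of these 4 genes and of WND2B do not overlap in either genotype, nor do those of MYB020 in OE. How often this holds over all tested genes was not counted.

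The NST/SND1-type genes were described first. Levels are CPM divided by the transcript length in kb, so that genes can be set side by side. WND1A (chromosome 11, 17183973 to 17186300, plus strand; coordinates as in the deposited files) had 2.09, 0.944 and 1.19 CPM per kb in OE Zn, against 2.91, 4.21 and 4.74 in OE control. It had 1.25, 1.71 and 0.496 CPM per kb in WT Zn, against 4.98, 3.98 and 5.07 in the libraries labelled WT control. Every Zn library lay below every control library, also across genotypes. WND1A fell by 1.49 on the log2 scale in OE roots (SE 0.37, edgeR adjusted p = 0.0185) and by 2.04 in WT roots (SE 0.38, edgeR adjusted p = 0.00217). When WT control 1 and 2 were left out, WND1A in WT gave -2.16 (edgeR adjusted p = 0.0221).

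WND1B (chromosome 1, 48256678 to 48259048, minus strand), the copy of WND1A, had 0.845, 0.81 and 1.09 CPM per kb in OE Zn, against 1.8, 1.44 and 2.18 in OE control. Its level was 1.00, 1.20 and 0.674 CPM per kb in WT Zn, against 2.36, 2.33 and 2.13 in the libraries labelled WT control. Again no Zn library reached the lowest control library. WND1B fell by 0.97 on the log2 scale in OE roots (SE 0.25, edgeR adjusted p = 0.0181) and by 1.25 in WT roots (SE 0.24, edgeR adjusted p = 0.00242). When the same libraries were left out, WND1B in WT gave -1.16 (edgeR adjusted p = 0.0474).

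For WND1A the call in OE was lost without OE control 2, OE control 3, OE Zn 2 or OE Zn 3 (edgeR adjusted p 0.0573 to 0.0718). For WND1B it was lost without OE control 3, OE Zn 1 or OE Zn 2 (edgeR adjusted p 0.0639 to 0.0748). In WT both calls held in all 22 other settings, which included the omission of each library in turn.

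WND2A and WND2B are the other NST-type pair. WND2A (chromosome 14, 8242353 to 8244133, minus strand) had 1.58, 1.57 and 2.54 CPM per kb in OE Zn, against 1.60, 1.77 and 1.96 in OE control. It had 1.82, 2.30 and 1.62 CPM per kb in WT Zn, against 1.65, 2.26 and 2.35 in the libraries labelled WT control. The groups overlapped in both genotypes. The log2 fold change was 0.10 in OE (SE 0.25, edgeR adjusted p = 0.831) and -0.13 in WT (SE 0.25, edgeR adjusted p = 0.736), or -0.30 in WT with WT control 1 and 2 left out (edgeR adjusted p = 0.582).

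WND2B (chromosome 2, 13836457 to 13838247, minus strand) was the lowest NST-type member in every group. Its level was 0.178, 0.397 and 0.169 CPM per kb in OE Zn, against 0.433, 0.609 and 0.453 in OE control. In WT Zn it was 0.216, 0 and 0.0984 CPM per kb, against 0.439, 0.63 and 0.304 in the libraries labelled WT control. The Zn and control points did not overlap in either genotype, but few counts lie behind them. There were 22 counts in OE Zn and 40 in OE control, and 10 counts in WT Zn and 41 in WT control. The pooled ratio was 0.499 in OE (95% exact binomial interval 0.283 to 0.861) and 0.245 in WT (0.109 to 0.498), intervals that cover counting error only.

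WND2B fell by 2.00 on the log2 scale in WT roots (SE 0.66, edgeR adjusted p = 0.0376). WND2B reached the threshold of the low-count filter in 3 OE control, 2 WT control, 1 OE Zn and 0 WT Zn libraries. A difference was thus in part fixed by that filter. With no low-count filter the call held (log2 fold change -2.01, edgeR adjusted p = 0.0469). In 9 of the 22 other settings WND2B no longer passed, and in 2 of these the low-count filter removed it. Among the 9 were the omission of WT control 1, WT control 2, WT Zn 2, WT Zn 3 or OE control 3. With single libraries left out the value ran from -3.01 (without WT Zn 1) to -1.52 (without WT Zn 2). With WT control 1 and 2 both left out it gave -1.42 (edgeR adjusted p = 0.36). In OE roots it was -0.99 (SE 0.59, edgeR adjusted p = 0.278). The difference between the genotypes' responses did not pass its own test (log2 difference 1.01, SE 0.90, edgeR adjusted p = 0.845). That difference was 0.42 with WT control 1 and 2 left out (edgeR adjusted p = 0.921).

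The VND7-type genes went the other way from the WND1 pair. WND6A (chromosome 13, 12652735 to 12656380, minus strand) had 2.78, 3.02 and 1.89 CPM per kb in OE Zn, against 0.199, 0.947 and 0.363 in OE control. It had 1.36, 1.93 and 2.85 CPM per kb in WT Zn, against 0.622, 0.657 and 0.543 in the libraries labelled WT control. Even the lowest Zn library lay above the highest control library, OE control 2. WND6A was 5.03-fold higher on Zn in OE roots (log2 fold change 2.33, SE 0.45, edgeR adjusted p = 0.00479). Without OE control 2, the control library with the highest level, the log2 fold change was 3.19 (edgeR adjusted p = 0.00265). In WT roots it was 3.34-fold higher (log2 fold change 1.74, SE 0.44, edgeR adjusted p = 0.01). When WT control 1 and 2 were left out the WT value was 1.90 and no longer passed (edgeR adjusted p = 0.104). Without WT control 3 and WT Zn 3 it was 1.35 and did not pass either (edgeR adjusted p = 0.0877).

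WND6B (chromosome 19, 11646876 to 11650530, minus strand) was the member nearest to zero on control medium. It had 29, 41 and 12 counts in OE Zn, against 0, 1 and 1 in OE control. There were 19, 8 and 13 counts in WT Zn, against 0, 4 and 3 in the libraries labelled WT control. Every Zn library stood above every control library, and WND6B stayed below WND6A in each library. Per length, its level was 1.12, 1.47 and 0.439 CPM per kb in OE Zn and 0.637, 0.346 and 0.462 CPM per kb in WT Zn.

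The size of the rise of WND6B is poorly fixed because the control counts are at or near the floor. The ratio of pooled counts was 37.2 in OE (82 counts against 2; 95% exact binomial interval 9.98 to 313) and 5.74 in WT (40 counts against 7; 2.55 to 15.2), for counting error only. The fitted log2 fold change was 4.99 in OE (SE 0.87, edgeR adjusted p = 0.00285) and 2.43 in WT (SE 0.75, edgeR adjusted p = 0.0281). WND6B passed the low-count filter through 5 Zn libraries and no control library, so a difference was in part fixed by that filter. With no low-count filter both calls held, at an edgeR adjusted p of 0.00225 in OE and 0.0307 in WT. The WT call was lost without WT control 1 (log2 fold change 1.82), WT control 3, WT Zn 1 or WT Zn 3, and with WT control 1 and 2 both left out WND6B gave 1.93 (edgeR adjusted p = 0.201). The difference of the 2 responses, 2.56 on the log2 scale (SE 1.35), did not pass (edgeR adjusted p = 0.786), nor did the value of 3.05 with WT control 1 and 2 left out (edgeR adjusted p = 0.481).

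**Figure D2:**
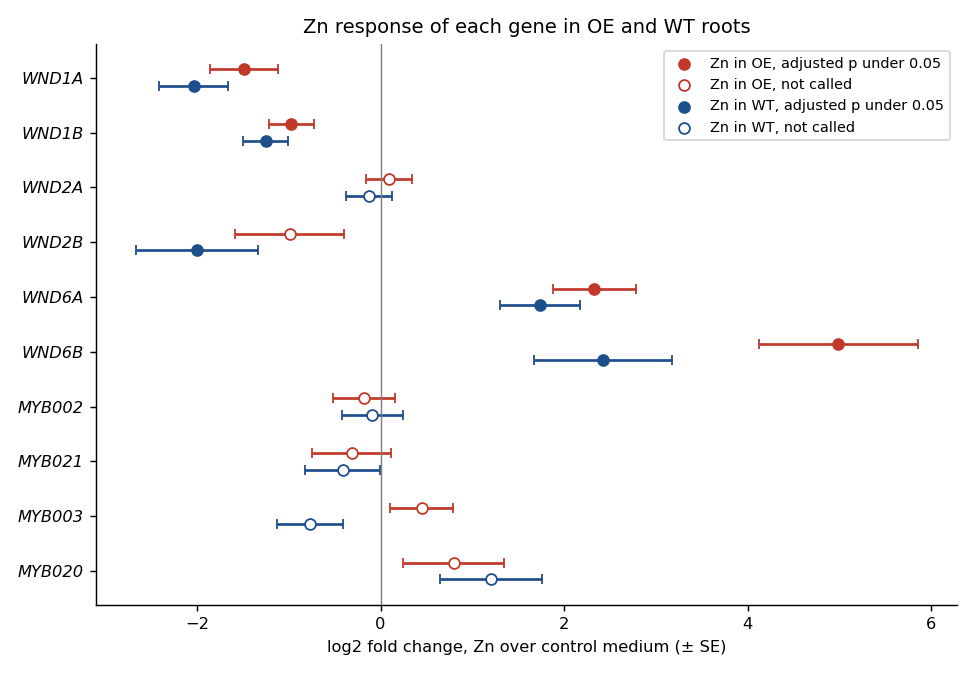
Log2 fold change of Zn over control medium (horizontal axis, ± SE) for each gene in OE (upper symbol) and WT (lower symbol) roots; filled symbols passed an edgeR adjusted p of 0.05. WND1A and WND1B lie left of 0 and WND6A and WND6B right of 0 in both genotypes, and the MYB genes lie between -0.77 and 1.21 with open symbols.

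As a sum, WND1A and WND1B stood at 2.32 CPM per kb ± 0.59 in OE Zn and 5.76 ± 1.11 in OE control (SD, n = 3). The same sum was 2.11 ± 0.88 CPM per kb in WT Zn and 6.95 ± 0.55 in the libraries labelled WT control (SD, n = 3). WND6A and WND6B summed to 3.58 ± 1.12 CPM per kb in OE Zn and 0.531 ± 0.408 in OE control, and to 2.53 ± 0.69 in WT Zn and 0.696 ± 0.0931 in WT control (SD, n = 3). The balance of the WND1 and WND6 pairs thus differed between the media. The WND2 pair, also of the NST/SND1 type, is not part of this balance. WND2A and WND2B summed to 2.14 ± 0.50 CPM per kb in OE Zn and 2.28 ± 0.21 in OE control (SD, n = 3). In WT they summed to 2.02 ± 0.29 on Zn and 2.54 ± 0.41 on control medium (SD, n = 3). WND6 held 50.5% to 71.9% of the WND1 and WND6 total in OE Zn, against 4.05% to 14.8% in OE control. It held 43.9% to 73.9% in WT Zn, against 7.81% to 11.3% in WT control. These shares restate the single-gene results above and were given no test. Among the WT Zn libraries, WT Zn 3 had the lowest WND1 sum and the highest WND6 sum.

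**Figure D3:**
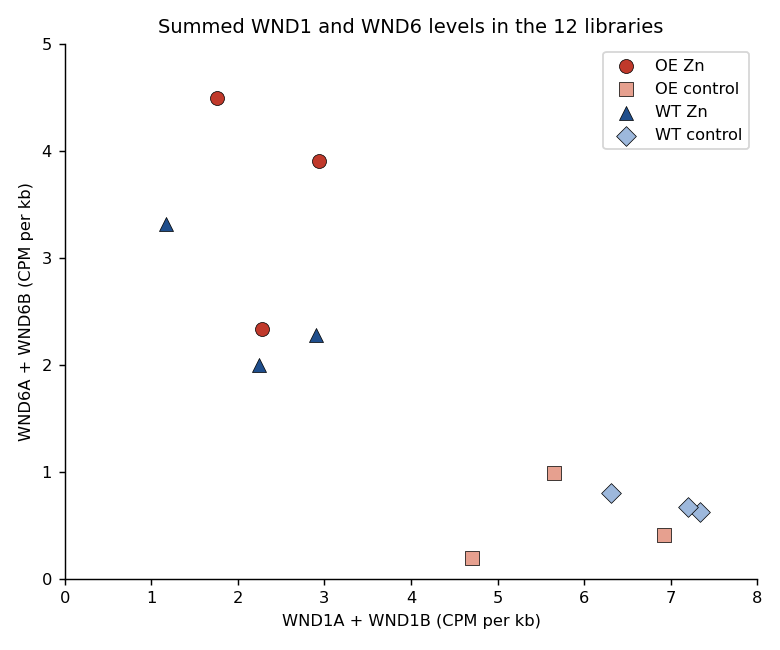
Summed level of WND1A and WND1B (horizontal axis, CPM per kb) against that of WND6A and WND6B (vertical axis, CPM per kb), 1 symbol for each of the 12 libraries. The 6 Zn libraries lie at 1.17 to 2.94 on the WND1 axis and 2.00 to 4.49 on the WND6 axis, apart from the 6 control libraries at the lower right.

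The 4 MYB genes, the second layer of the program, did not pass the test on Zn in either genotype. MYB021 (chromosome 9, 5767670 to 5770326, minus strand) was the highest of them in each group. It had 1.54, 2.11 and 0.539 CPM per kb in OE Zn, against 1.48, 1.59 and 2.16 in OE control. In WT it had 2.57, 2.00 and 0.973 CPM per kb in WT Zn, against 2.47, 2.46 and 2.47 in the libraries labelled WT control. The Zn libraries spread widely, mostly within or below the control range of their genotype, with OE Zn 3 and WT Zn 3 the lowest. Only WT Zn 1 stood above that range. The log2 fold change was -0.31 in OE (SE 0.43, edgeR adjusted p = 0.662) and -0.41 in WT (SE 0.41, edgeR adjusted p = 0.478). MYB021 in WT gave -0.42 with WT control 1 and 2 left out (edgeR adjusted p = 0.687).

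MYB002 (chromosome 1, 26778319 to 26780792, minus strand), the copy of MYB021, varied little between groups. Its level was 0.433, 0.803 and 0.633 CPM per kb in OE Zn, against 0.638, 0.673 and 0.819 in OE control. The WT libraries held 0.58, 0.572 and 0.76 CPM per kb on Zn, against 0.554, 0.659 and 0.838 in those labelled WT control. All 4 groups overlapped, and the log2 fold change was -0.18 in OE (SE 0.34, edgeR adjusted p = 0.761) and -0.09 in WT (SE 0.33, edgeR adjusted p = 0.864). MYB002 in WT gave -0.39 with WT control 1 and 2 left out (edgeR adjusted p = 0.606).

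MYB003 (chromosome 1, 27516421 to 27518932, minus strand) had 1.02, 1.46 and 0.765 CPM per kb in OE Zn, against 0.732, 0.813 and 0.836 in OE control. It had 0.553, 0.714 and 0.43 CPM per kb in WT Zn, against 1.12, 1.11 and 0.634 in the libraries labelled WT control. The Zn and control groups overlapped in both genotypes. The log2 fold change was 0.45 in OE (SE 0.35, edgeR adjusted p = 0.413) and -0.77 in WT (SE 0.36, edgeR adjusted p = 0.125). The WT value was -0.18 with WT control 1 and 2 left out (edgeR adjusted p = 0.848).

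MYB020 (chromosome 9, 6340254 to 6342421, minus strand), the copy of MYB003, was the lowest MYB gene on control medium. It had 0.617, 0.954 and 0.778 CPM per kb in OE Zn, against 0.417, 0.569 and 0.357 in OE control. In WT Zn it had 1.34, 0.805 and 0.52 CPM per kb, against 0.0905, 0.43 and 0.657 in the libraries labelled WT control. The OE groups did not overlap and the WT groups did. It gave 0.80 on the log2 scale in OE (SE 0.55, edgeR adjusted p = 0.356) and 1.21 in WT (SE 0.55, edgeR adjusted p = 0.119). It passed in WT in 1 of the other settings, without WT control 3 and WT Zn 3 (log2 fold change 2.05, edgeR adjusted p = 0.0391), and gave 0.43 without WT control 1 and 2 (edgeR adjusted p = 0.669).

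The order of the members by level per length also differed between the media. On control medium WND1A led in both genotypes, at 3.95 CPM per kb ± 0.94 in OE and 4.68 ± 0.60 in WT (SD, n = 3), and no library of the next gene reached its lowest. The next 3 places were held in both genotypes by WND1B, WND2A and MYB021, with WND6B last. On Zn, WND6A held the first place, at 2.57 ± 0.60 CPM per kb in OE and 2.05 ± 0.75 in WT (SD, n = 3), followed by WND2A. There the libraries of each gene overlapped with those of the next down to the ninth place, and only WND2B lay apart at the end in OE. In WT Zn, WND2B was last as well and did not overlap with WND6B above it. The authors' FPKM values gave the same first place in each group.

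Whether the copies of a pair shared the response was tested by the share of the first-named gene in the level of its pair. The test was an exact two-sided permutation over 6 Zn and 6 control libraries, with labels exchanged within genotype (400 arrangements, smallest possible p = 0.005) and adjustment over the 5 pairs. In 4 of 5 pairs the share differed between the media. WND1A held 55.6% ± 9.4 of its pair on Zn and 67.7% ± 4.7 on control medium (SD, n = 6 each; exact p = 0.03, adjusted p = 0.0375). This call was lost in 10 of 12 fits with 1 library left out, and the log2 fold changes of WND1A and WND1B were not compared directly. WND2A held 91.2% ± 6.8 on Zn and 80.0% ± 4.7 on control medium (SD, n = 6 each; exact p = 0.015, adjusted p = 0.0375).

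WND6A held 76.5% ± 8.5 of its pair on Zn and 91.4% ± 8.5 on control medium (SD, n = 6 each; exact p = 0.03, adjusted p = 0.0375), where WND6B rests on 2 counts in OE and 7 in WT. MYB003 held 49.0% ± 12 on Zn and 67.7% ± 14.7 on control medium (SD, n = 6 each; exact p = 0.025, adjusted p = 0.0375). By genotype this was 57.5% on Zn and 64.2% on control medium in OE, and 40.5% on Zn and 71.2% on control medium in WT, a difference between genotypes that was not tested. WT control 1, where MYB020 had 2 counts, held the highest share, 92.5%. For MYB002 the share was 31.3% ± 14.3 on Zn and 25.3% ± 4.7 on control medium (SD, n = 6 each; exact p = 0.445, adjusted p = 0.445). The Zn and control libraries overlapped in each pair. The direction held in all 12 fits with 1 library left out for each pair, but the 4 calls were lost in 9 to 11 of the 12 (200 arrangements each, smallest possible p again 0.005). With WT control 1 and 2 left out no pair passed, and the 4 differences had an exact adjusted p of 0.0781 each. The treatment of reads that match both copies of a pair is not given in the sources used here.

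**Figure D4:**
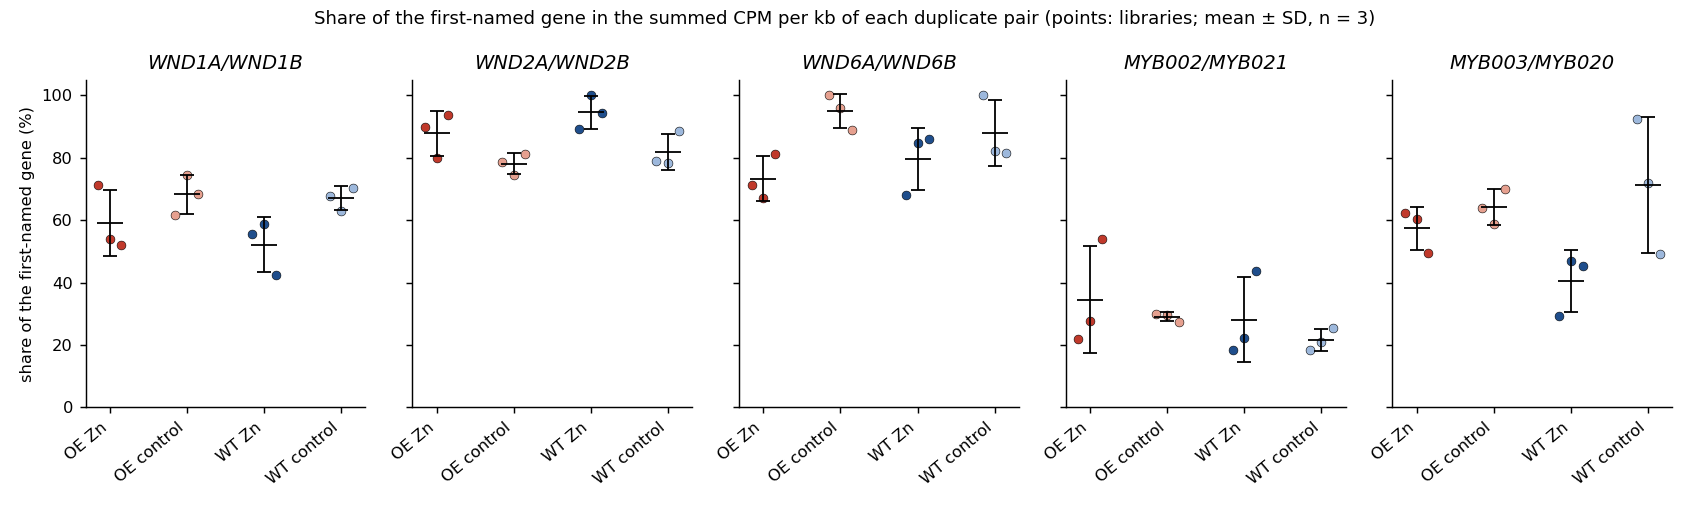
Share of the first-named gene in the summed level per length of each pair (vertical axis, percent) in the 4 groups, with 1 point for each library and mean ± SD (n = 3). On Zn the share was lower for WND1A, WND6A and MYB003 and higher for WND2A, with overlap between single libraries.

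The transgene was examined next: whether OE roots differed from WT roots in these genes. No member passed in OE against WT on control medium, on Zn, or in the interaction of genotype and Zn, where 0% of all tested genes were called in each comparison by edgeR. At an unadjusted p under 0.05 there were 0 members among 2296 genes on control medium, 1 among 1845 on Zn and 1 among 1627 in the interaction. DESeq2 called 81, 64 and 5 genes in these comparisons and limma-voom 0, with no member among them. Nor was a member called with WT control 1 and 2 left out, and over 22 settings the smallest edgeR, DESeq2 or limma adjusted p of a member was 0.434. Both single results belonged to MYB003. On Zn it had a log2 fold change of 0.94 in OE over WT (SE 0.36, 95% interval 0.12 to 1.76, unadjusted p = 0.021, edgeR adjusted p = 0.647), with the 3 OE libraries above the 3 WT libraries. Its interaction was 1.22 on the log2 scale (SE 0.50, unadjusted p = 0.0307, edgeR adjusted p = 0.779), and 0.62 with WT control 1 and 2 left out (edgeR adjusted p = 0.739).

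The intervals of some other members show what these comparisons could not exclude. For WND1A on Zn the OE over WT log2 difference was 0.30 with a 95% interval of -0.62 to 1.23. WND6A gave 0.33 (-0.58 to 1.23), WND6B 1.05 (-0.24 to 2.33) and WND2B 1.13 (-0.51 to 2.77) on Zn. On control medium WND1B gave -0.33 (-0.87 to 0.20), and -0.24 with WT control 1 and 2 left out. WND6B gave -1.52 (-4.32 to 1.29) there, and -2.00 with the same libraries left out. Its interaction of 2.56 had an interval of -0.54 to 5.67. At MYB021 the 3 OE control libraries, the highest at 2.16 CPM per kb, lay below all 3 of WT control (lowest 2.46), with a log2 difference of -0.50 (SE 0.41, edgeR adjusted p = 0.771), the same to 2 decimals with WT control 1 and 2 left out.

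Other wood-related loci were read from the same fit in 6 lists. Their IDs were assigned from memory of the poplar gene annotation and not from the files, so the list names are no better than that assignment. The counts per list are to be read beside the shares of all tested genes called on Zn. These were 8.52% higher and 8.54% lower in OE, and 15.3% higher and 14.5% lower in WT. The 5 loci taken as secondary wall cellulose synthases, which make the cellulose of the wood cell wall, fell on Zn with the WND1 genes: 4 of 5 passed in OE (median log2 fold change -1.34) and 5 of 5 in WT (-1.63), and none rose. With WT control 1 and 2 left out, 5 of 5 still passed in WT (median -1.82). Potri.006G181900.v3.0 stood at 14.1 CPM ± 3.0 in OE Zn and 42.2 ± 7.8 in OE control, and at 14 ± 6.0 in WT Zn and 52.4 ± 9.8 in WT control (SD, n = 3). Its log2 fold change was -1.58 in OE (SE 0.30, edgeR adjusted p = 0.00596) and -1.91 in WT (SE 0.30, edgeR adjusted p = 0.00112). Potri.002G257900.v3.0 gave -1.34 and -1.80, and Potri.004G059600.v3.0 gave -1.48 and -1.63, in OE and WT.

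Of all tested genes, 8.52% were called higher on Zn in OE and 15.3% in WT. Of 6 further loci taken as VND-type NAC genes, 3 rose and none fell on Zn in OE (median 1.24). In WT 1 rose and none fell (median 0.40). In OE the count was 1 without OE control 2, and with WT control 1 and 2 left out 1 locus rose and 1 fell in WT. Potri.005G116800.v3.0 rose in both, to 8.45 CPM ± 1.05 in OE Zn, against 2.79 ± 0.22 in OE control, and to 6.01 ± 0.64 in WT Zn, against 2.58 ± 0.16 in WT control (SD, n = 3). Its log2 fold change was 1.60 in OE (SE 0.16, edgeR adjusted p = 0.000149) and 1.22 in WT (SE 0.16, edgeR adjusted p = 0.000262). Potri.003G113000.v3.0 (1.56) and Potri.001G120000.v3.0 (1.48) rose in OE and did not pass in WT, and the difference between genotypes passed for no locus of the list. Potri.007G014400.v3.0 went furthest the other way in WT (log2 fold change -0.65, SE 0.25, edgeR adjusted p = 0.0638). It had 2.20 CPM ± 0.27 in WT Zn, against 3.47 ± 1.07 in WT control (SD, n = 3).

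Of 3 loci taken as xylem cysteine proteases, which clear the contents of dying vessels, 2 were tested. Potri.004G207600.v3.0 rose in OE (log2 fold change 1.66, SE 0.45, edgeR adjusted p = 0.0312), and gave 1.32 in WT (SE 0.46, edgeR adjusted p = 0.0504). In OE no locus of the list passed in 10 of the 22 other settings, among them limma-voom, the omission of OE control 1, 2 or 3 or of OE Zn 1 or 2, and that of WT control 1 and 2. In WT a locus of the list passed in 7 of the 22, DESeq2 among them. The 3 loci summed to 24.7 to 57.7 CPM per kb in OE Zn, against 16.1 to 26.3 in OE control, and to 17.5 to 42.1 in WT Zn, against 19.1 to 22.8 in WT control, with 1 locus at 0 counts in every group. Of 5 cambium loci, markers of the dividing layer that gives rise to wood, Potri.003G107600.v3.0 fell in both genotypes (log2 fold change -0.63 in OE and -0.46 in WT) and 4 did not pass. Of these 4, Potri.002G124100.v3.0 went the other way in WT (log2 fold change 0.59, edgeR adjusted p = 0.0688). It had 22.1 to 29.2 CPM in WT Zn, against 14.9 to 19.2 in WT control. A cambium locus was called higher in WT with DESeq2, in fits of the compared groups alone, and without OE Zn 2 or OE Zn 3. Over the 22 other settings, 0 to 4 cambium loci were called lower in OE and 0 to 2 in WT. The log2 fold changes of the 5 loci ran from -0.71 to 0.00 in OE (median -0.57) and from -0.46 to 0.59 in WT (median -0.40). With WT control 1 and 2 left out no cambium locus passed in WT.

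The lignin precursor enzymes showed no common direction. Of 22 loci listed, 21 were tested, with 4 higher and 3 lower in OE and 6 higher and 6 lower in WT, and a median of 0.00 and 0.04. The largest rise in both genotypes was Potri.001G304800.v3.0 (0.83 in OE and 0.97 in WT) and the largest fall Potri.016G091100.v3.0 (-1.0 and -0.85). Of 8 class III HD-ZIP loci, regulators of vascular patterning, 2 rose and none fell in OE, and 2 rose and 2 fell in WT. With WT control 1 and 2 left out, the WT counts were 3 higher and 5 lower for the lignin loci and 0 higher and 1 lower for HD-ZIP. In OE against WT none of these loci passed in either medium or in the interaction. The summed cambium level was 65.7 to 90.9 CPM per kb in OE Zn, against 87.2 to 127 in OE control, and 70.1 to 104 in WT Zn, against 98.6 to 106 in WT control. Its part in the NAC and cellulose synthase results was not tested.

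**Figure D5:**
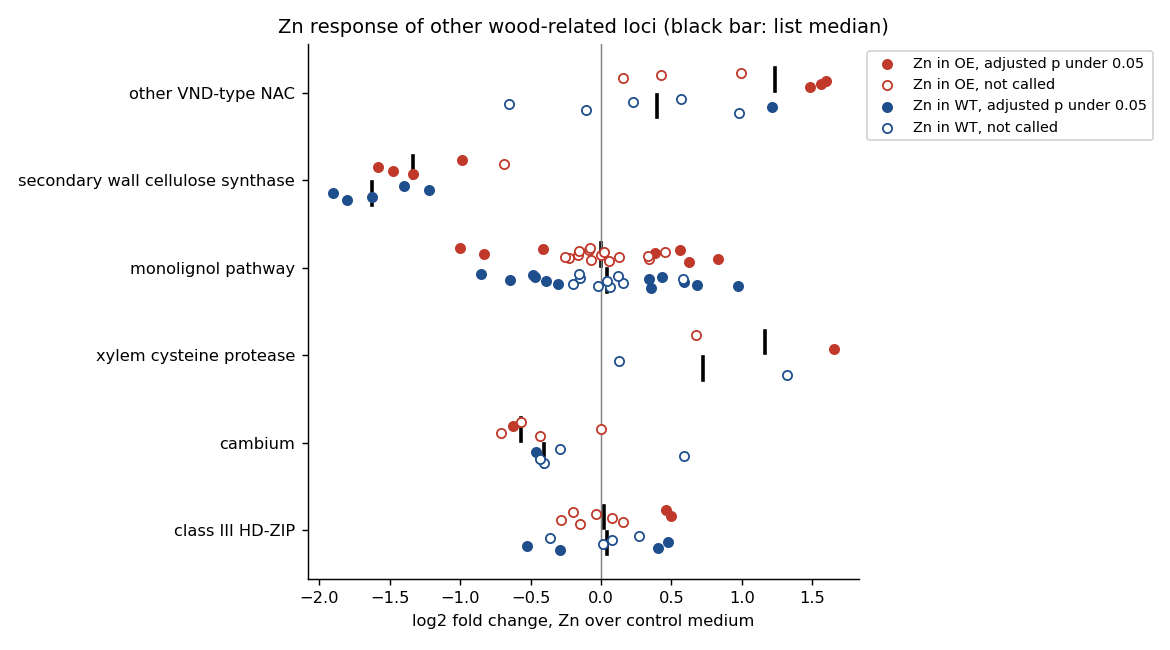
Log2 fold change of Zn over control medium (horizontal axis) for each tested locus of 6 lists, OE above WT within each list; filled symbols passed an edgeR adjusted p of 0.05 and black bars are list medians. The cellulose synthase loci lie left of 0 in both genotypes, the monolignol loci on both sides, and no VND-type locus was called lower.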

How the data were processed

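Per the submitters' processing notes, reads were aligned with TopHat2 2.1.1 and counted with HTSeq 0.6.0. The sources used here state neither the genome build nor the strand setting, nor how multiply mapped reads were handled. The gene IDs are those of P. trichocarpa, another poplar. The authors deposited, for each library, an estimated count, an FPKM value and a normalized signal per gene. The deposited estimated counts, which are whole numbers, were tested as they stand: they equal the count implied by the normalized signal for 65.9% to 67.3% of detected genes and are 1 above it for 32.7% to 34.1%. For WND1A, WND1B, WND6A, MYB003, MYB020 and MYB021 both agree in all 12 libraries.

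Genes were filtered with filterByExpr (25871 left, all 10 members among them), scaled by TMM and fitted in 1 model of 4 group means with edgeR 4.0.16 in R 4.3.3 (robust quasi-likelihood, 8 residual degrees of freedom, Benjamini-Hochberg over all tested genes). SEs are the absolute log2 fold change over the square root of F, and 95% intervals use 8 degrees of freedom. Other settings were DESeq2 1.42.0, limma-voom (limma 3.58.1), other scalings, filters and counts, fits of the compared groups alone, and left-out libraries. For the lists, leaving out libraries was chosen after seeing the data. The test was tried on simulated counts. Replicate pairs differed by 5.52 to 31.5 in chi-square per degree of freedom, so none was taken as a duplicate. Replicate numbers follow the order of deposit and pair nothing.

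All 10 members are named in each comparison. Of each list, up to 3 called loci per direction could be named by the size of their change. The cambium locus Potri.002G124100.v3.0, not called, was named as well because it went the other way in WT. The 3 genes most like the members were those of mean CPM of at least 5 with the highest Pearson r to the members' mean standardized log2(CPM + 0.5). The rule for the members uses no measured value, but members and lists were chosen with earlier results of these data known. No sequence is shown, since no sequence file was used here.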

Additional observations from a re-analysis of the deposited data

How the results depend on the processing

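Zn changed 4 members in OE and 5 in WT; the WT count was 5 with DESeq2, limma-voom, both other scalings, no filter and the implied counts. It was 3 with a filter of 1 CPM in 3 libraries and in fits of the 2 groups alone, where WND2B and WND6B were not tested because the filter removed them. It was 2 without WT control 1 and 2, which leaves 1 WT control library whose spread is taken from the other groups, and 3 without WT control 3 and WT Zn 3. With each library left out in turn, 2 to 4 members were called in OE and 3 to 5 in WT. The lowest counts were 2 in OE (without OE control 3 or OE Zn 2) and 3 in WT (without WT control 1 or WT Zn 3). Of the 9 called values none changed sign in those of the 22 settings in which the gene was tested. No member was called between genotypes or in the interaction under any setting. Of the 49 further listed loci, not all of them tested, 18 were called in OE and 23 in WT. Over all 25871 tested genes, 4413 were called in OE and 7730 in WT. Without WT control 3 and WT Zn 3, 14 listed loci were called in WT. With each library left out (chosen after seeing the data) 11 (without OE control 2) to 21 were called in OE and 17 to 26 in WT.

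The pair shares kept their direction. Without WT control 1 and 2 the Zn minus control differences were -13.2 points for WND1A/WND1B, 10.5 for WND2A/WND2B, -15.2 for WND6A/WND6B and -11.5 for MYB003/MYB020 (exact permutation, adjusted p = 0.0781 each). Without WT control 3 and WT Zn 3 they were -8.86, 12.3, -18.9 and -21.7 (exact permutation, adjusted p 0.0833 to 0.125). With each library left out they ran from -15.2 to -9.41, from 9.41 to 13.4, from -17.0 to -13.1 and from -22.5 to -13.8 (exact permutation, adjusted p 0.025 to 0.106), and for MYB002/MYB021 from 1.45 to 8.57. No paired analysis was possible because the labels give no replicate numbers. WND6B in OE was not tested under the 1 CPM filter. Depth limits WND6B, WND2B and MYB020 most.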

Other observations

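The genes whose pattern over the 12 libraries was most like the mean of the members were Potri.003G097800.v3.0 (Pearson r 0.90), Potri.001G332200.v3.0 (0.86) and Potri.002G103900.v3.0 (0.84), among 18707 genes of at least 5 CPM. That mean joins members that moved in opposite directions, so WND1A and WND6A were also taken singly, a choice made after the values were seen. Nearest to WND1A were Potri.005G053200.v3.0 and Potri.002G236700.v3.0 (both r 0.98), with log2 fold changes on Zn of -0.92 and -1.19 in OE and -1.02 and -1.52 in WT. Nearest to WND6A were Potri.014G060500.v3.0 and Potri.019G083000.v3.0 (both r 0.96), with 0.42 and 1.45 in OE and 0.34 and 1.28 in WT. The libraries share medium and genotype, so these values describe likeness and carry no p.

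Between the members themselves, Pearson r over the 12 libraries was 0.91 for WND1A with WND1B and 0.87 for WND6A with WND6B. Between the NAC types it was -0.81 for WND1A with WND6A, -0.74 for WND1A with WND6B, -0.90 for WND1B with WND6A and -0.84 for WND1B with WND6B. With each group's mean removed, so that only the spread between libraries of a group was left, the copies gave 0.53 for WND1 and 0.28 for WND6. The same 4 pairs between the types, in that order, gave -0.14, -0.04, -0.69 and -0.42. The WND2 pair gave -0.19 over all libraries and -0.40 within groups.

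The nearest genes on the chromosome were read for comparison, with no test. Around WND1A, the 20 nearest tested genes had a median log2 fold change on Zn of 0.03 in OE and -0.05 in WT, and around WND6A of -0.14 and 0.01. Around WND6B the medians were 0.16 in OE and 0.13 in WT. No other gene in the files overlaps a member's locus.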
